A study of Homo sapiens with 12 samples.

Results

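The genes of MHC class II antigen presentation were followed by their symbols through a count table of U251 cells, an established human glioblastoma line. The 10 genes are CIITA, the class II transactivator, its DNA-bound partner RFX5, the invariant chain gene CD74, the chain genes HLA-DRA, HLA-DRB1, HLA-DPA1, HLA-DMA and HLA-DMB, and the lysosomal enzyme genes CTSS and IFI30. All 10 were found among the 27685 entries of the table, and all 10 passed the filter on low counts that left 15769 genes for testing. Poly(A)-selected RNA of 12 samples was sequenced, 3 in each of 4 groups. The groups were cells with a stable control hairpin (shCTRL), untreated or given interferon gamma (IFNγ) for 24 h, and cells with a stable hairpin against the noncoding RNA INCA1 (shINCA1), untreated or given IFNγ for 24 h. All cells were at passages 14 to 18, and every group carried a hairpin construct, so no parental cells were measured.

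MHC class II molecules show peptides from the endosomal route to CD4+ T cells. Their genes are switched on by CIITA, a coactivator that does not bind DNA itself and is recruited by a complex of RFX, CREB and NF-Y proteins on the X and Y boxes of class II promoters. Professional antigen-presenting cells make CIITA constantly, whereas many other cells, glial tumour cells among them, make it in answer to IFNγ. The α and β chains assemble on the invariant chain, which cathepsin S trims in the endosome. HLA-DM then exchanges the remaining invariant chain peptide for others, and the thiol reductase encoded by IFI30 opens disulfide bonds of antigens.

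Values are given as CPM, the deposited estimated counts per library total scaled with TMM factors. Library totals were 46525032 to 66242859 and correlations of log CPM between replicates were at least 0.9946. Tests are edgeR quasi-likelihood tests with Benjamini-Hochberg adjustment over all tested genes, and a change was called at an adjusted p under 0.05. Low values in the table often come in steps of 3 (5790 values of 3 and 4120 of 6, against 2186 of 2 and 1317 of 4), so 3 counts may stand for about 1 fragment, and counting intervals are too narrow. Whether replicates were grown separately is not stated, and the p-values therefore measure only how far these samples spread. Each hairpin was present as 1 line as far as the labels tell, and a hairpin effect cannot be told apart from a difference between lines. The level of the targeted noncoding RNA was not analysed here, so no value here checks the hairpin labels; the symbol INCA1 in the table belongs to a different, coding gene.

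By summed CPM the glioblastoma and astroglial markers stood far above those of immune cells, though single markers differed widely in level. The 10 glioblastoma and astroglial markers summed to 4560 to 4900 CPM in shCTRL and 3880 to 4100 CPM in shINCA1 libraries, without overlap. VIM was the highest of them in each group, with means of 1818 to 2565 CPM. In untreated shCTRL cells TNC (904 CPM) and CD44 (656 CPM) came next. SOX9 (194 CPM), NES, SOX2 (110 CPM) and FABP7 (79.8 CPM) followed there. Group means were low for GFAP (1.59 CPM or less), S100B (2.46 CPM or less) and OLIG2 (1.14 CPM or less). In shINCA1 cells 6 of the 10 were lower untreated and 7 treated, against 29.5% and 30.2% of all tested genes. In both states 3 were higher (CD44, SOX9 and OLIG2), against 27.4% and 28.7%, so the list moved in both directions. Among the lower ones, the neural stem cell gene NES was at 33.5 ± 1.84 against 137 ± 5.59 CPM untreated and 28.9 ± 1.93 against 116 ± 3.24 CPM treated (SD, n = 3). The part of these markers in the members' differences was not tested. The 18 immune cell markers summed to 11.5 to 15.3 CPM, and 12.6 ± 0.878 (SD, n = 3) of this in untreated shCTRL cells was CD68, a lysosomal gene. TYROBP, AIF1, SPI1, MS4A1, CD3E, ITGAX and CD1C, which mark myeloid, B, T and dendritic cells, were at 0 in all 12 libraries. The sums ranged from 13 to 14.6 CPM in untreated and 13.8 to 15.3 in treated shCTRL cells, and from 11.8 to 12.3 in untreated and 11.5 to 13.7 in treated shINCA1 cells. The 4 endothelial markers summed to 7.09 to 7.87, 9.24 to 10.3, 9.54 to 11.3 and 15.1 to 17.2 CPM in the same order, and their part in the results was not tested. In bulk RNA, fewer cells expressing a gene and less RNA per cell cannot be told apart.

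CIITA was silent without IFNγ and strongly induced by it in both lines. All 6 untreated libraries had 0 counts, which allows up to 0.0552 CPM in untreated shCTRL and 0.0486 CPM in untreated shINCA1 cells at 3 counts per library. With IFNγ the shCTRL libraries were at 39.3, 37.2 and 36.1 CPM, at least 678-fold above the untreated limit (adjusted p = 1.71e-09). Lower bounds of this kind were computed from counts pooled over the 3 libraries and can differ slightly from a ratio of mean CPM. The shINCA1 libraries reached 16.5, 18.3 and 16.1 CPM with IFNγ, at least 348-fold (adjusted p = 4.60e-09). Every shINCA1 library treated with IFNγ stood below every treated shCTRL library, and the log2 difference was -1.14 ± 0.07 (SE, adjusted p = 3.24e-06), or 2.21-fold lower.

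**Figure D1:**
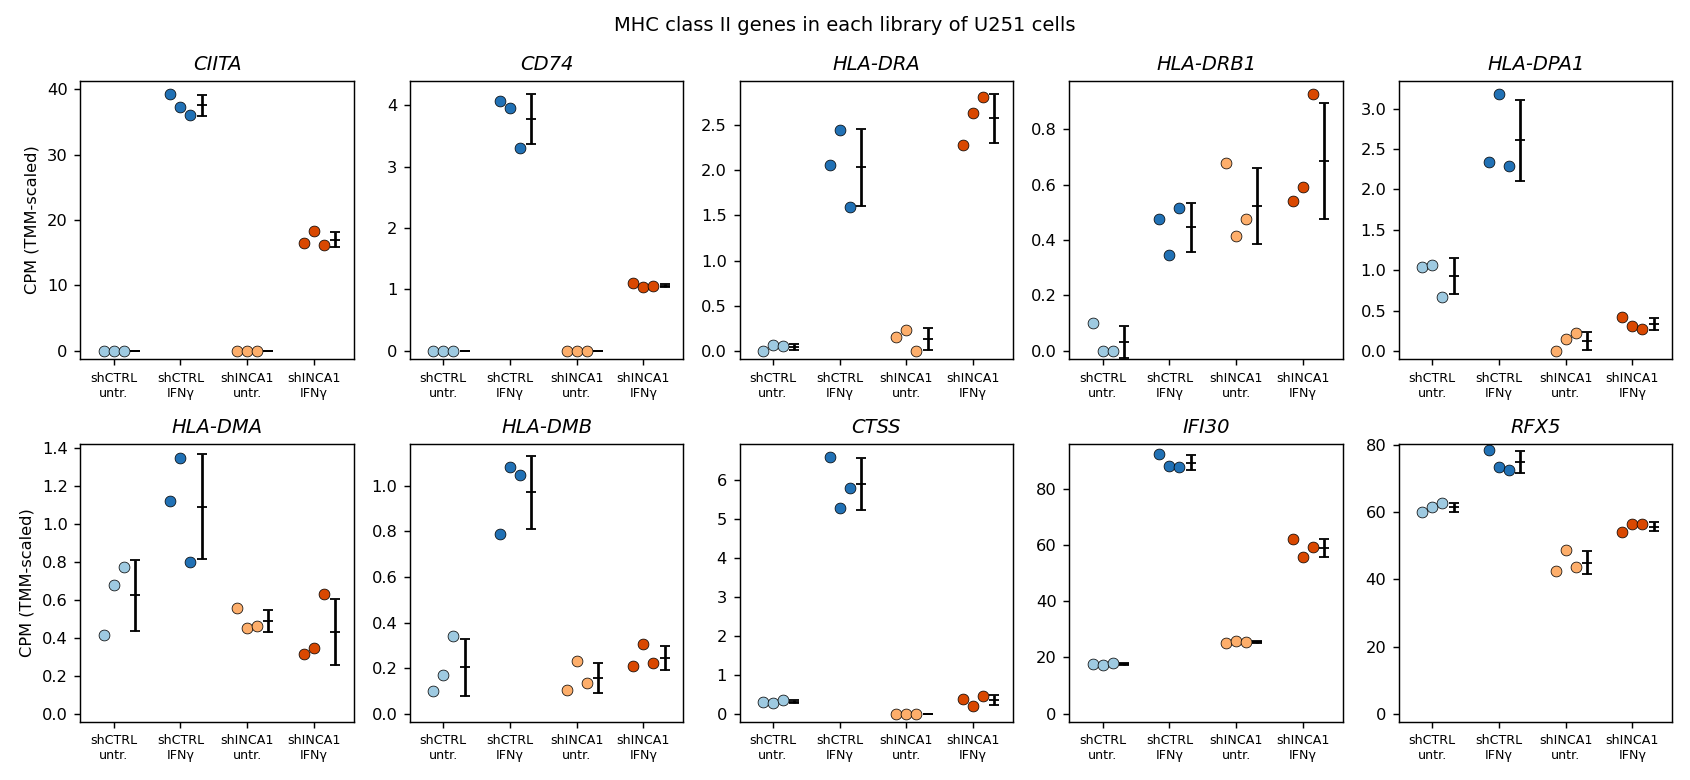
CPM of each of the 10 genes (vertical axes, linear, one scale per gene) in the 12 libraries, by group; points are libraries and the bars beside them the mean and SD of 3. CIITA and CD74 are at 0 without IFNγ in both lines, whereas IFI30 and RFX5 are expressed in all 4 groups. HLA-DRA values of the treated groups overlap.

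RFX5, the RFX subunit through which the promoter complex binds the X box, behaved differently, with a substantial level before treatment. Untreated shCTRL libraries were at 60.2, 61.5 and 62.9 CPM and treated ones at 78.6, 73.6 and 72.6 CPM. This rise of 0.28 ± 0.05 on the log2 scale (adjusted p = 0.00208) was 1.22-fold. In shINCA1 cells RFX5 went from 42.6, 48.9 and 43.6 CPM to 54.2, 56.5 and 56.4 CPM, a log2 change of 0.31 ± 0.05 (adjusted p = 0.00200). The responses of the lines differed by 0.02 ± 0.07 (adjusted p = 0.959), and RFX5 was lower in shINCA1 cells by similar amounts without IFNγ (-0.45 ± 0.05, adjusted p = 1.19e-05) and with it (-0.43 ± 0.05, adjusted p = 1.75e-05).

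The invariant chain gene CD74 followed CIITA from 0 but reached low levels. No untreated library of either line had a count. Treated shCTRL libraries were at 4.07, 3.95 and 3.31 CPM, at least 68.1-fold above the untreated limit (adjusted p = 1.05e-06), and treated shINCA1 libraries at 1.10, 1.04 and 1.06 CPM, at least 21.9-fold (adjusted p = 9.15e-06). With IFNγ the lines did not overlap, and CD74 was 3.53-fold lower in shINCA1 cells (log2 difference -1.82 ± 0.20, adjusted p = 9.51e-05).

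HLA-DRA, which encodes the α chain of HLA-DR, was induced in both lines, to levels that overlapped. In shCTRL cells it had 0, 3 and 3 counts untreated and 99, 156 and 96 counts with IFNγ, or 2.05, 2.45 and 1.595 CPM. The ratio of pooled counts was 55.4 (95% exact interval 25.2 to 152, adjusted p = 2.11e-04). In shINCA1 cells it went from 0.157, 0.233 and 0 CPM to 2.28, 2.63 and 2.81 CPM, a log2 change of 4.33 ± 0.63 (adjusted p = 6.87e-04). Between untreated lines the ratio of 3.38 (95% exact interval 1.34 to 10.1) did not pass (adjusted p = 0.160), though it did with DESeq2 (0.0333) and without untreated shINCA1 library 3 (0.00928). Treated libraries of the lines overlapped, and their log2 difference of 0.34 ± 0.49 did not pass (adjusted p = 0.576). That SE is too wide to show equal levels. CIITA and CD74 were called lower in the same shINCA1 libraries.

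HLA-DRB1, a β chain partner of HLA-DRA, stood out by its level in untreated shINCA1 cells. Untreated shCTRL libraries had 6, 0 and 0 counts, and treated ones were at 0.477, 0.345 and 0.515 CPM, a ratio of 12 (95% exact interval 5.27 to 33.7, adjusted p = 0.00722). Untreated shINCA1 libraries were already at 0.679, 0.416 and 0.475 CPM, 14.1 times the untreated shCTRL level (95% exact interval 6.25 to 39.4, adjusted p = 0.00115). With IFNγ they were at 0.540, 0.591 and 0.926 CPM, overlapping the untreated ones, and the response of 0.39 ± 0.57 did not pass (adjusted p = 0.807). All treated shINCA1 libraries were above the treated shCTRL libraries, but the log2 difference of 0.62 ± 0.58 did not pass (adjusted p = 0.380). Reads of HLA chain genes can be shared between relatives, and a line's own alleles can differ from the reference, so single values of these genes are uncertain.

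HLA-DPA1, the α chain of HLA-DP, was lower in shINCA1 cells both without and with IFNγ. Untreated shCTRL libraries were at 1.04, 1.06 and 0.665 CPM, against 0, 0.150 and 0.223 CPM in untreated shINCA1 libraries, a log2 difference of -2.83 ± 0.58 (adjusted p = 0.00116). With IFNγ the values were 2.35, 3.18 and 2.29 CPM against 0.418, 0.306 and 0.278 CPM, 7.75-fold lower (log2 difference -2.95 ± 0.52, adjusted p = 3.81e-04). Within shCTRL cells the rise with IFNγ was 1.498 ± 0.473, at an adjusted p of 0.04996. That call was lost under 14 of 19 alternatives, among them the replicate block (0.0886) and leaving out any 1 of the 6 shCTRL libraries (0.0908 to 0.179). In shINCA1 cells the change of 1.38 ± 0.61 did not pass (adjusted p = 0.242), although treated and untreated libraries did not overlap.

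HLA-DMA and HLA-DMB encode the chains of HLA-DM, the peptide exchanger. HLA-DMB rose in shCTRL cells from 0.0994, 0.170 and 0.342 CPM to 0.789, 1.08 and 1.05 CPM (log2 change 2.25 ± 0.46, adjusted p = 0.00505). HLA-DMA was at 0.414, 0.679 and 0.773 CPM untreated and at 1.12, 1.35 and 0.798 CPM treated, and its change of 0.81 ± 0.35 did not pass (adjusted p = 0.152). In shINCA1 cells neither passed: treated and untreated libraries overlapped for both genes, with log2 changes of -0.18 ± 0.37 for HLA-DMA (adjusted p = 0.873) and 0.64 ± 0.49 for HLA-DMB (adjusted p = 0.577). Without IFNγ the lines overlapped, and their log2 differences of -0.34 ± 0.36 for HLA-DMA (adjusted p = 0.441) and -0.37 ± 0.50 for HLA-DMB (adjusted p = 0.558) did not pass. With IFNγ, HLA-DMA was at 0.314, 0.347 and 0.630 CPM and HLA-DMB at 0.209, 0.306 and 0.222 CPM in shINCA1 libraries, 2.53-fold (adjusted p = 0.00683) and 3.95-fold (adjusted p = 0.00257) below shCTRL. The differences of responses, -0.99 ± 0.51 for HLA-DMA and -1.61 ± 0.68 for HLA-DMB, did not pass (adjusted p = 0.505 and 0.375).

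The promoters of HLA-DRB1, HLA-DMA and HLA-DMB are shown with that of CD74 because CIITA is known to act on all 4 genes and their values differed. RefSeq's table held a window from 250 bases before to 50 after the start for 7 of the 10 genes, with no entry for CIITA, HLA-DRA and CTSS. Printed are the 130 bases before the start (GRCh38.p14, minus strand) of HLA-DRB1 (chr6:32589849-32589978), HLA-DMA (chr6:32953098-32953227), HLA-DMB (chr6:32941029-32941158) and CD74 (chr5:150412911-150413040). Capitals mark matches to TGATGATG, the X box core letters searched for, which CD74 lacks, and to ATTGG, the Y box letters that NF-Y binds. ATTGG reads as CCAAT where the match is on the other strand.
HLA-DRB1: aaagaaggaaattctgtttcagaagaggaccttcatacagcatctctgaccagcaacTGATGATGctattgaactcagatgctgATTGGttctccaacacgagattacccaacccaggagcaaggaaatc
HLA-DMA: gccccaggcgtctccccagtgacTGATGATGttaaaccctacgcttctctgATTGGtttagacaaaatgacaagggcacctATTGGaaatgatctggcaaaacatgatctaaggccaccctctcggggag
HLA-DMB: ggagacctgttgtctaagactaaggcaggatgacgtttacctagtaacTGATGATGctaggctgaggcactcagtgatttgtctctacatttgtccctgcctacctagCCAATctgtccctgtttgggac
CD74: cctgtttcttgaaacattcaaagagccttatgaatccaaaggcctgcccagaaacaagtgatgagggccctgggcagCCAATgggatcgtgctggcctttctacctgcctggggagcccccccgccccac

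The letters TGATGATG, searched on both strands, begin 73 bases before the start of HLA-DRB1, 107 before that of HLA-DMA and 82 before that of HLA-DMB. They were found in 0.94% of all 35116 windows of the same length, and were chosen after these sequences were seen. ATTGG was in 34.6% of windows, and both were in 0.387%. CD74, HLA-DPA1 (at either of 2 listed starts), IFI30 and RFX5 (at any of 3) held no TGATGATG in these windows, and HLA-DPA1 held no ATTGG. Of the letters through which IFNγ signalling is known to act, TTCNNNGAA (the GAS site, in 7.66% of windows) matched no window of the 7 genes, and an interferon-stimulated response element (GAAA, any 2 bases, GAAA, in 3.57%) matched 1 window of RFX5. A match describes letters and not a bound site.

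CTSS, which encodes cathepsin S, the protease that trims the invariant chain, differed between the lines by the widest margin among the 10 genes with IFNγ. It rose in shCTRL cells from 0.298, 0.276 and 0.342 CPM to 6.60, 5.28 and 5.78 CPM, a log2 change of 4.26 ± 0.27 (adjusted p = 1.73e-06). All untreated shINCA1 libraries had 0 counts, at least 6.30-fold below untreated shCTRL cells (adjusted p = 1.38e-05). With IFNγ they had 22, 10 and 25 counts, or 0.383, 0.204 and 0.463 CPM, at least 7.30-fold above the untreated limit by pooled counts (adjusted p = 7.52e-05). That treated level, 0.350 ± 0.133 CPM (SD, n = 3), overlapped the 0.305 ± 0.0335 CPM of untreated shCTRL cells and was 16.6-fold below treated shCTRL cells (log2 difference -4.05 ± 0.26, adjusted p = 5.05e-07).

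IFI30, the thiol reductase gene, was expressed in all libraries and was the 1 gene called for a different response among the 5 members where that test could be made. Untreated levels were 17.5, 17.3 and 17.9 CPM in shCTRL and 24.9, 26.0 and 25.5 CPM in shINCA1 libraries, higher in shINCA1 by 0.54 ± 0.04 on the log2 scale (adjusted p = 6.14e-07). Treated levels were 92.2, 88.0 and 87.6 CPM in shCTRL and 62.0, 55.6 and 59.2 CPM in shINCA1 libraries, where shINCA1 was the lower (-0.60 ± 0.04, adjusted p = 1.61e-07). The rise was 5.08-fold in shCTRL (2.34 ± 0.04, adjusted p = 4.18e-12) and 2.31-fold in shINCA1 cells (1.21 ± 0.04, adjusted p = 1.74e-09). The responses differed by -1.135 ± 0.061 (adjusted p = 1.60e-06), and no groups overlapped.

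Counted over the 10 genes, 9 rose with IFNγ in shCTRL and 6 in shINCA1 cells. Over all tested genes 9.72% were raised in shCTRL and 6.13% in shINCA1 cells (17.2% and 9.08% called in either direction). With upper-quartile factors the split of all calls in shCTRL turned from 1532 raised and 1184 lowered to 1201 and 1970, and in shINCA1 from 967 and 465 to 815 and 733. The median log2 change of the 10 was 2.95 in shCTRL and 1.29 in shINCA1 cells, against -0.01 and 0.00 over all tested genes, and it was the same with genes at 0 set to their lower bounds. No member was lowered in either response by edgeR at an adjusted or an unadjusted p under 0.05. The DESeq2 Wald test and limma-voom lowered none either. Of all tested genes 7.51% and 2.95% were lowered, so 0 in a list this short is near those shares. HLA-DMA in shCTRL cells, and HLA-DRB1, HLA-DPA1, HLA-DMA and HLA-DMB in shINCA1 cells, were the members that did not pass.

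**Figure D2:**
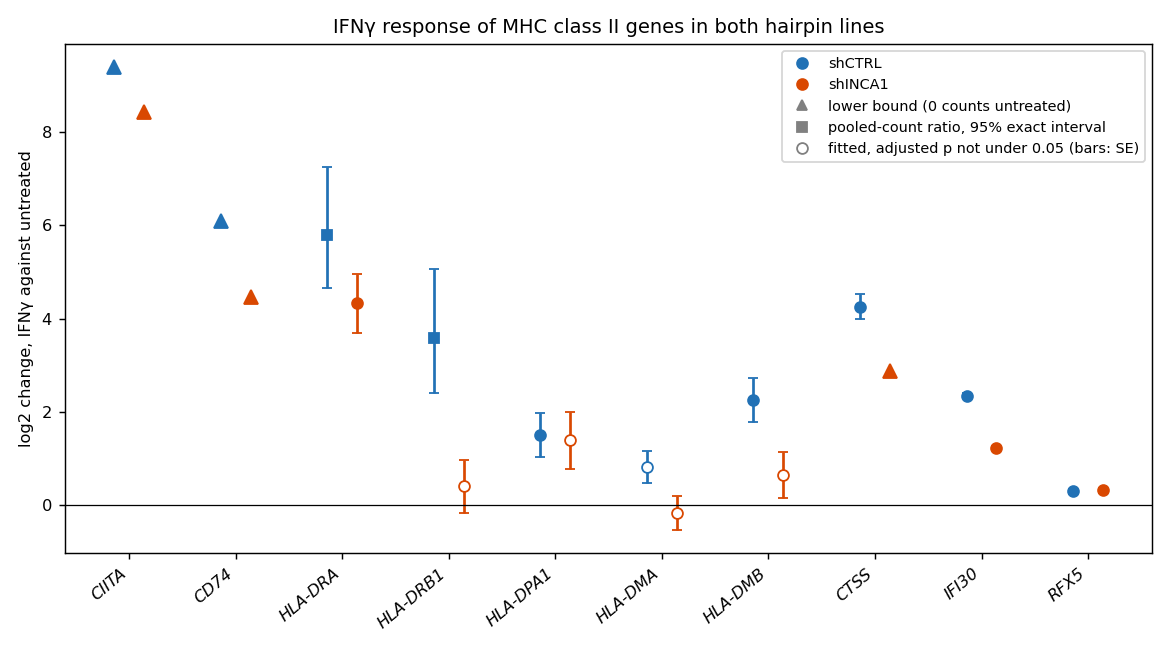
Log2 change with IFNγ (vertical axis) of the 10 genes in shCTRL (blue) and shINCA1 (orange) cells: circles are fitted values with SE, open where the adjusted p was not under 0.05, triangles lower bounds for genes at 0 counts untreated, and squares ratios of pooled counts with 95% exact intervals. RFX5 changed by 0.28 and 0.31 in the lines, IFI30 by 2.34 and 1.21, and HLA-DRB1, HLA-DPA1, HLA-DMA and HLA-DMB are open in shINCA1 cells.

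Between the lines, 3 members were lower in shINCA1 cells without IFNγ (HLA-DPA1, CTSS and RFX5) and 2 were higher (HLA-DRB1 and IFI30), against 29.5% and 27.4% of all tested genes. CIITA and CD74 were at 0 in both lines. With IFNγ, 8 were lower in shINCA1 cells, all but HLA-DRA and HLA-DRB1, against 30.2% of all tested genes. None was higher by edgeR at an adjusted or unadjusted p under 0.05, by DESeq2 or by limma-voom, against 28.7% of all genes. The median log2 difference with IFNγ was -1.24, and 0.00 over all genes. Between lines 56.9% of all genes were called without and 58.9% with IFNγ, so a call is common. The difference of responses could be fitted for the 5 members above 9 pooled counts in every group, and 1 of them, IFI30, was called (1.71% of all genes were called, 1.10% lowered and 0.615% raised).

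The 5 HLA genes lie on chromosome 6 among neighbours that were mostly lower in shINCA1 cells. All genes with an HLA symbol were left out of these neighbours. Of those left out, HLA-DRB1 (adjusted p = 0.00115) and HLA-DPB1 (adjusted p = 0.0381) were called higher in untreated shINCA1 cells, and HLA-DPA1 was called lower. Of the 20 tested genes that neighbour HLA-DRA, 10 on each side in GRCh38 order and none of them in a list used here, 20 had a log2 difference below 0 without IFNγ, with a median of -0.67, and 17 with IFNγ, with a median of -0.64. The medians around HLA-DPA1 were -0.60 and -0.67, and the HLA members share most of these neighbours. Neighbours that respond to IFNγ were not left out, so the medians with IFNγ can hold such responses as well as a difference of the region. With IFNγ HLA-DPA1, HLA-DMA and HLA-DMB were lower than their neighbours' medians, while HLA-DRA and HLA-DRB1 were above them. Without IFNγ HLA-DMA and HLA-DMB were also above them. Neighbours of CIITA on chromosome 16 had medians of -0.06 and -0.05, those of CD74 on chromosome 5 0.07 and 0.08, those of CTSS on chromosome 1 -0.05 and -0.14, those of RFX5 on the same chromosome -0.06 and -0.02, and those of IFI30 on chromosome 19 0.15 and 0.37. The part of the region in the members' differences was not tested.

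**Figure D3:**
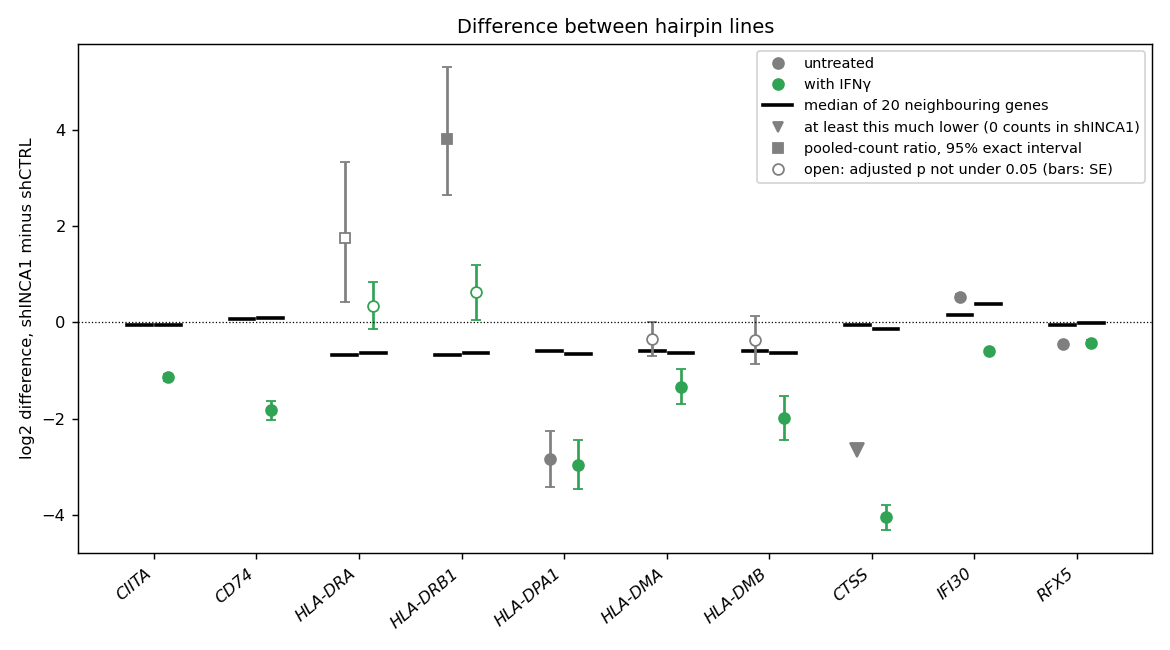
Log2 difference of shINCA1 minus shCTRL cells (vertical axis) without (grey) and with IFNγ (green) for the 10 genes; circles are fitted values with SE, squares ratios of pooled counts with 95% exact intervals, the triangle the least amount by which CTSS was lower (0 counts in shINCA1), open symbols did not pass, and black bars are medians of 20 neighbouring genes. CIITA and CD74 have no untreated symbol, and the black bars lie near -0.65 for the HLA genes and between -0.14 and 0.37 for the others.

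Counts of 1 member relative to another were set side by side in the treated libraries, where the test could not pass. Among IFNγ-treated libraries, CD74 had 10.4%, 10.6% and 9.17% as many counts as CIITA in shCTRL and 6.65%, 5.69% and 6.54% in shINCA1 cells. HLA-DRA had 5.23%, 6.57% and 4.42% as many as CIITA in shCTRL but 13.8%, 14.4% and 17.4% in shINCA1 cells. HLA-DPA1 had 129% ± 14.8 (SD, n = 3) as many counts as HLA-DRA in shCTRL and 13.3% ± 4.46 in shINCA1 cells. CTSS had 6.58% ± 0.577 as many as IFI30 in shCTRL and 0.589% ± 0.209 in shINCA1 cells. None of the 5 ratios compared overlapped between the lines, but none passed: each had a two-sided exact permutation p of 0.1 (also 0.1 adjusted over the 5), the smallest that 3 against 3 libraries can give. These are ratios of counts of genes of different length, and HLA-DPA1 itself was not called as induced in shINCA1 cells.

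**Figure D4:**
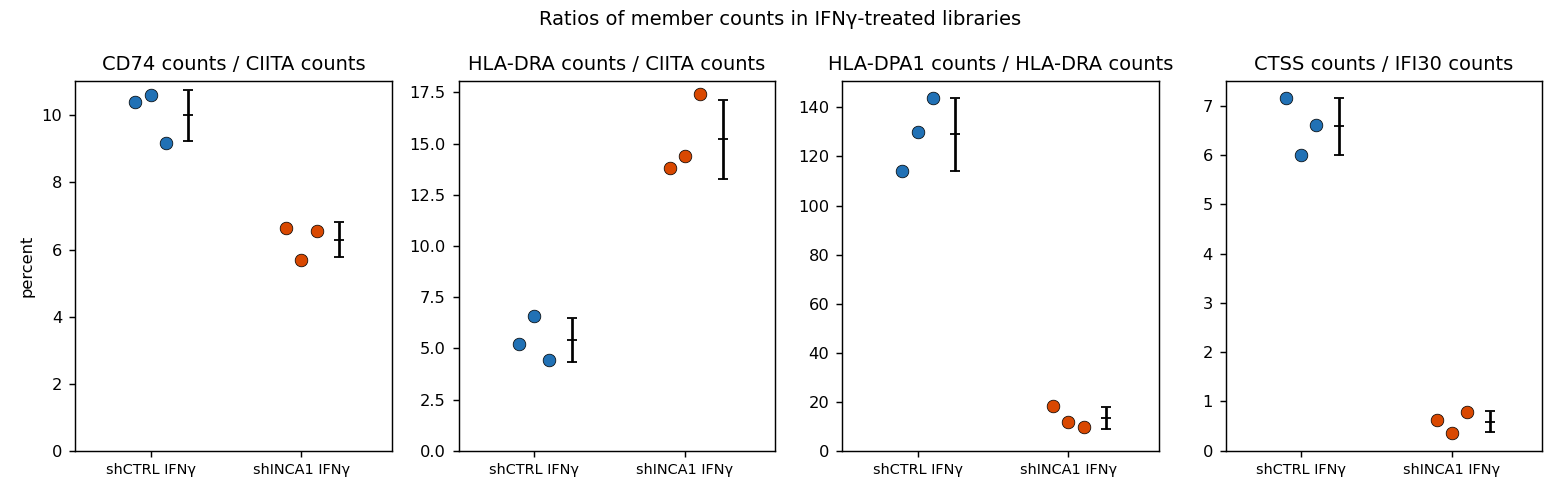
Counts of 1 gene as a percent of those of another (vertical axes, linear from 0) in the 3 treated libraries of each line, with mean and SD. CD74 against CIITA falls from about 10 to 6.29 percent between shCTRL and shINCA1 cells, whereas HLA-DRA against CIITA goes from 5.41 to 15.2 percent.

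Scaled to 1 kb of the canonical transcript, treated shCTRL cells had 90.4 ± 2.59 CPM per kb of IFI30 and 21.0 ± 0.898 of RFX5 (SD, n = 3). CD74 followed at 2.28 ± 0.248, HLA-DRA at 1.64 ± 0.344, HLA-DPA1 at 1.53 ± 0.293 and CTSS at 1.5 ± 0.169, and neighbours in this order differed by less than 2 times the larger SD. HLA-DMA was at 0.996 ± 0.253, HLA-DMB at 0.721 ± 0.119 and HLA-DRB1 at 0.364 ± 0.0731 CPM per kb. In treated shINCA1 cells the order after IFI30 (59.7 ± 3.22) and RFX5 (15.6 ± 0.378) was HLA-DRA (2.09 ± 0.218), CD74 (0.644 ± 0.0182), HLA-DRB1 (0.561 ± 0.171), HLA-DMA (0.393 ± 0.159), HLA-DPA1 (0.196 ± 0.0437), HLA-DMB (0.182 ± 0.0389) and CTSS (0.0889 ± 0.0337). From CD74 to HLA-DMA, and from HLA-DPA1 to HLA-DMB, neighbours in this order differed by less than the larger of their SDs. CIITA is left out, because the annotation's canonical transcript of 16061 bases would understate its level if a shorter form was made.

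Of the other class II chains, 9 of 11 listed genes were in the table and 3 passed the filter. HLA-DPB1, the β chain partner of HLA-DPA1, rose in shCTRL cells by 2.68 ± 0.41 (adjusted p = 6.05e-04), from 0.163 ± 0.0640 to 1.04 ± 0.143 CPM. HLA-DOB, a chain of the HLA-DM inhibitor HLA-DO, rose by 2.48 ± 0.63 in shCTRL (adjusted p = 0.0168) and by 2.76 ± 0.69 in shINCA1 cells (adjusted p = 0.0258). Its partner HLA-DOA was at 6 counts in 1 library and 0 in the others. In shINCA1 cells the change of HLA-DPB1, 0.62 ± 0.38, did not pass (adjusted p = 0.442). HLA-DPB1 was higher in untreated shINCA1 than in untreated shCTRL cells (1.12 ± 0.42, adjusted p = 0.0381), a call that limma-voom did not make, and lower in treated ones (-0.94 ± 0.37, adjusted p = 0.0438). HLA-DQA1 had 3 counts in all, HLA-DQB1 33 pooled counts or fewer per group, and HLA-DQB2 was seen in shINCA1 libraries only as 38 and 9 pooled counts.

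The partners of RFX5 and the cofactors of CIITA changed little with IFNγ. Of 12 tested genes, RFXANK, an RFX subunit, rose in shCTRL cells by 0.17 ± 0.04 (adjusted p = 0.0147) and NFYB, a subunit of NF-Y, fell by 0.16 on the log2 scale (SE 0.05, adjusted p = 0.0311). This was 1 raised and 1 lowered, against 9.72% and 7.51% of all tested genes, and DESeq2 and limma-voom each called 2 raised and 2 lowered. In shINCA1 cells 0 of 12 were called by edgeR, by DESeq2 or by limma-voom, and 2 at an unadjusted p under 0.05. Of all tested genes edgeR called 9.08% there, so 0 in a list this short is near that share. Between untreated lines 3 of 12 were lower in shINCA1 cells, near the 29.5% of all tested genes: NFYA, another NF-Y subunit (-0.80 ± 0.04, adjusted p = 7.40e-09), RFXAP, the third RFX subunit (-0.65 ± 0.08, adjusted p = 1.69e-05), and the methyltransferase gene CARM1 (-0.11 ± 0.03, adjusted p = 0.00593). With IFNγ 5 were lower, NFYA by -0.65 ± 0.04 and RFXAP by -0.33 ± 0.08 among them, and 3 higher, against 30.2% and 28.7% of all tested genes. The median log2 change of the list lay between -0.05 and 0.04 in all 5 comparisons, and that of all genes between -0.01 and 0.01.

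The route from the IFNγ receptor to the CIITA promoter had 7 of 11 genes raised in shCTRL and 6 in shINCA1 cells, against 9.72% and 6.13% of all tested genes. IRF1, a transcription factor that acts on the inducible CIITA promoter, rose by 5.96 ± 0.06 (adjusted p = 1.69e-14) and 5.75 ± 0.06 (adjusted p = 1.97e-14). Treated shCTRL cells had 936 ± 4.92 CPM of IRF1 and treated shINCA1 cells 628 ± 6.66 CPM (SD, n = 3). With IFNγ 8 of the 11 were lower in shINCA1 cells, with a median log2 difference of -0.65, and 1 was higher, against 30.2% and 28.7% of all tested genes. They included JAK1 (-0.67 ± 0.04), JAK2 (-1.46 ± 0.08) and IFNGR1 (-0.65 ± 0.05), with adjusted p-values no higher than 4.65e-07. The responses of JAK2 (-1.04 ± 0.11, adjusted p = 5.27e-04) and of the feedback inhibitor SOCS1 (-2.05 ± 0.32, adjusted p = 0.00672) differed between the lines. The 8 lower genes also included SOCS1 (-1.905 ± 0.168, adjusted p = 1.17e-06), so the count mixes activators with an inhibitor, and the 1 higher gene was PIAS1. Without IFNγ 6 of the 11 were already lower in shINCA1 cells and 1 was higher, against 29.5% and 27.4% of all tested genes. The part of these differences in the lower CIITA of treated shINCA1 cells was not tested.

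Other lysosomal processing genes responded weakly. Of 14, CTSC, a protease that activates other proteases, rose by 0.62 ± 0.03 in shCTRL (adjusted p = 6.89e-08) and 0.46 ± 0.03 in shINCA1 cells (adjusted p = 2.14e-06). LGMN, asparagine endopeptidase, rose by 0.28 ± 0.03 (adjusted p = 4.69e-05) and 0.16 ± 0.03 (adjusted p = 0.00463). This was 2 of 14 raised in each line, against 9.72% of all tested genes in shCTRL and 6.13% in shINCA1 cells. None was lowered in edgeR, near the 7.51% and 2.95% of all tested genes for a list this short. In each line 1 gene was lower at an unadjusted p under 0.05. DESeq2 lowered 0 in either line, and limma-voom lowered 1 in shCTRL and 0 in shINCA1 cells. CTSV, a thymic relative of CTSL, was higher in treated shINCA1 cells by 2.67 ± 0.11 (adjusted p = 2.16e-09), as was CTSD, cathepsin D (0.65 ± 0.05), whereas CTSC (-0.61 ± 0.03) and the lysosomal membrane gene LAMP1 (-0.43 ± 0.03) were lower. These genes already differed in the same directions without IFNγ. Their untreated log2 differences were 2.445 ± 0.112, 0.633 ± 0.046, -0.447 ± 0.034 and -0.43 ± 0.03 in the same order (adjusted p of at most 3.45e-07). Of 14, 7 were higher and 4 lower without IFNγ, against 27.4% and 29.5% of all tested genes. With IFNγ 7 were higher and 5 lower, against 28.7% and 30.2%, so the list moved in both directions, unlike CTSS.

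Of 8 tested genes of class II trafficking and turnover, 1 was called in shCTRL cells, near the 17.2% of all tested genes: MARCH1, a ubiquitin ligase that removes class II molecules from the surface, fell by 0.49 on the log2 scale (SE 0.08, adjusted p = 0.00139). In shINCA1 cells 0 were called by edgeR, DESeq2 or limma-voom, and 1 had an unadjusted p under 0.05. With 9.08% of all tested genes called there by edgeR, 0 in a list this short is near that share. Between treated lines 2 of 8 were higher and 2 lower in shINCA1 cells, near the 28.7% and 30.2% of all tested genes. MARCH1 was higher by 0.54 ± 0.08 (adjusted p = 1.46e-04), as was RAB7A, a late endosomal GTPase gene (0.21 ± 0.03, adjusted p = 6.98e-05). MARCH8, a relative of MARCH1, was at -0.26 ± 0.03 (adjusted p = 3.78e-05) and CLTC, the clathrin heavy chain gene, at -0.17 ± 0.03 (adjusted p = 7.40e-04).

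CD80 and CD86, which bind CD28, costimulate CD4+ T cells. CD80 had 3 counts in 1 group and CD86 at most 9 pooled counts in a group, and CD40 had at most 9, so none of them was tested. CD70, a tested gene of this list, had group means of 88.9 to 97.4 CPM. Its IFNγ changes did not pass (adjusted p = 0.782 in shCTRL and 0.298 in shINCA1 cells). Between treated lines CD70 was higher in shINCA1 cells (log2 difference 0.131 ± 0.045, adjusted p = 0.0257). Of the 7 tested genes of this list, 4 rose and 1 fell in shCTRL cells, against 9.72% and 7.51% of all tested genes. In shINCA1 cells 3 rose, against 6.13%, and none was lowered by edgeR or limma-voom, while 1 was lowered by DESeq2 and 1 at an unadjusted p under 0.05 (2.95% of all genes were lowered). The gene that fell in shCTRL cells was CD58, which encodes an adhesion ligand of T cells (log2 change -0.285 ± 0.055, adjusted p = 0.00317). The checkpoint ligand gene CD274 rose by 3.83 ± 0.12 and 4.20 ± 0.12 (adjusted p of at most 3.14e-10), and the costimulatory ligand gene ICOSLG by 1.03 ± 0.09 (adjusted p = 7.30e-06) and 0.76 ± 0.09 (adjusted p = 1.61e-04). The level of CD274 was lower in shINCA1 cells both without IFNγ (log2 difference -1.62 ± 0.13, adjusted p = 4.35e-07) and with it (-1.25 ± 0.10, adjusted p = 6.23e-07). The adhesion gene ICAM1 rose in shCTRL cells by 3.99 ± 0.94 (adjusted p = 0.0117), to 1.37 ± 0.0499 CPM (SD, n = 3), and had 9 pooled counts untreated and 15 treated in shINCA1 cells, a log2 difference of -3.83 ± 0.94 between treated lines (adjusted p = 0.00385).

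The genes most like a member over the 12 libraries were ranked by Pearson r of log2(CPM + 0.5) among 12968 genes of at least 1 CPM on average. Closest to CIITA were APOL2 (r = 0.9995), IFI35 (0.9987), RTP4 (0.998) and PSMB9 (0.9976), all higher in treated shCTRL than in treated shINCA1 cells. APOL2 was at 28.7 and 421 CPM in shCTRL and 28.1 and 253 CPM in shINCA1 cells. IFI30 was matched by SAMHD1 (0.9964), BATF2 (0.9912), TRIM25 and EIF4A3 (0.9901 each), and SAMHD1 showed the same crossing, with 59.3 and 272 CPM in shCTRL and 75.7 and 179 CPM in shINCA1 cells. RFX5 was matched by IFITM1 (0.9857), YY1AP1 (0.985), LPAR6 (0.9826) and TLE4 (0.9819). Among the members, CIITA correlated at 0.974 with IFI30, 0.963 with CD74 and 0.962 with HLA-DRA, but at 0.389 with HLA-DMA. HLA-DPA1 correlated at 0.926 with RFX5 and 0.901 with CTSS, and at -0.308 with HLA-DRB1. These points share libraries and group differences and are given as a description.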

How the data were processed

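RNA-seq of 12 U251 samples was analysed from 1 deposited table of estimated counts per gene symbol, whole numbers that the authors did not scale between samples. Build hg19 and the tools FastQC, Trimmomatic, HISAT2 and StringTie are named per the submitters' processing notes. For versions, annotation, counting and strand setting: not given in the sources used here. Columns were assigned to samples by title.

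The model was edgeR 4.0.16 under R 4.3.3 (filterByExpr, TMM, glmQLFit, glmQLFTest) with all 12 samples and 1 coefficient per group. SE is the log2 change divided by the square root of F. The 15769 tested genes held 99.986% of counts, with a common biological coefficient of variation of 10.6%. P-values are two-sided and Benjamini-Hochberg adjusted. Where a group had 0 counts, a fold was computed against 3 counts per library. Where it had 1 to 9 pooled counts, the ratio has a 95% exact interval. Intervals and floors cover counting error only. The fit was tested on simulated data. Alternatives were DESeq2 1.42.0 (Wald test and size factors), upper-quartile factors, no filter, 5 CPM in 3 samples, limma-voom (limma 3.58.1), unscaled totals, leaving out each library, the replicate block, and fits of the compared groups alone.

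The members, lists and tests were chosen with earlier results of these data known. Named were all members, up to 4 genes of a list by smallest p in a comparison, and the 4 genes most like CIITA, IFI30 and RFX5. Untested genes of a list were named by their counts, and CD70 and some cell type markers by their levels (chosen after their values were seen). Of the tested genes, 14539 matched a GENCODE v44 symbol for gene order. Lengths are from its canonical transcripts, and promoter windows from RefSeq, both GRCh38. Some genes of the lists are not reported here by name.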

Additional observations from a re-analysis of the deposited data

Results flagged for a closer look

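The IFNγ response of IFI30 differed between the lines by a test of the difference itself: -1.135 ± 0.061 on the log2 scale (shINCA1 response minus shCTRL response, edgeR adjusted p = 1.60e-06). It rose in all 3 treated libraries of each line above all untreated ones, from 17.6 to 89.3 CPM in shCTRL and from 25.5 to 58.9 CPM in shINCA1 cells.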

How the results depend on the processing

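Of 43 results for single members, 37 kept their direction and their side of the threshold under each alternative run. The rise of HLA-DPA1 in shCTRL cells lost its call under 14 of 19. HLA-DRA became higher in untreated shINCA1 cells with DESeq2 (adjusted p = 0.0333) and without untreated shINCA1 library 3 (0.00928). None of the reversed values was past the threshold: HLA-DMA in shINCA1 cells (-0.574 to 0.005 when 1 library was left out, 0.005 without IFNγ library 1), HLA-DMB between untreated lines (-0.747 to 0.238, 0.238 without untreated shCTRL library 3), and the differences of responses of HLA-DPA1 (-0.655 to 0.618 when 1 library was left out, 0.718 with limma-voom, 0.071 without untreated shCTRL library 3, 0.065 without treated shCTRL library 2, 0.618 without untreated shINCA1 library 3) and RFX5 (-0.007 to 0.076, -0.005 without untreated shINCA1 library 1, -0.007 without treated shINCA1 library 3). The filter of 5 CPM left fewer members to test: 4 rose in shCTRL, 1 was higher between untreated lines and 4 were lower between treated lines. Leaving out 1 library gave 8 to 9 members raised in shCTRL, 6 in shINCA1, 2 to 3 higher and 3 lower between untreated lines, 0 higher and 8 lower between treated lines, and 1 lowered in the difference of responses. Whether the numbers in the titles pair the samples is not stated. Deviations of same-numbered samples correlated at -0.049 to 0.103, which cannot show that these samples were handled apart. With the replicate block, HLA-DPA1 in shCTRL cells had an adjusted p of 0.0886, and no other member's call changed. No member's direction turned with DESeq2 size factors or upper-quartile factors. For the difference of responses over all genes, DESeq2 called 192 raised and 317 lowered, against 97 and 173. Depth limits the HLA chain genes, which had 0 to 203 counts per library: their fitted log2 changes between groups had SEs of 0.35 to 0.63, against 0.04 to 0.05 for IFI30 and RFX5.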
